A study of Drosophila melanogaster with 4 samples.

Results

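The genes described here build, modify and break down chitin, the N-acetylglucosamine polymer of the insect cuticle, of the tracheal lining and of the peritrophic matrix of the gut. They were chosen by name: 39 symbols, of which *Cht3* is an older symbol of *Cht10*, stand for 38 genes, and 36 of these had a probe, out of 11907 genes with a named probe in all. No named probe was found for *rtv* and *Hexo1*. RNA of *poly* mutant larvae and RNA of wild-type Canton S larvae were set against each other on 4 2-colour arrays, with a separate biological replicate of each genotype on each array. Each value below is the log2 ratio of *poly* over wild-type on 1 array, so a ratio below 0 means less RNA in *poly*, and no level in either genotype can be read from it.

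The mutant allele, *poly05137*, is a P-element insertion in an intron of CG9829, now called *Elp6*, which encodes a subunit of the Elongator complex. The labels give its genotype as that of the stock, poly05137/TM6B, with Canton S as the genetic background of both genotypes. No source used here says whether the larvae on the arrays were homozygous. Whole larvae were taken early in the third larval instar, a day after they had been moved to food with yeast paste. The mutant RNA was labelled with Cy5 for replicates 1 and 2, and the dyes were swapped for replicates 3 and 4. For *poly* itself the 4 arrays gave −1.49, −1.57, −1.69 and −1.79, averaging −1.63 ± 0.13 (SD, n = 4, adjusted p = 0.0109 from limma), below 0 on each array. This sign is part of the basis for reading the ratios as *poly* over wild-type, and so is no independent check of the labels. Replicate 3 stood apart from the other arrays. The salivary gland glue genes *Sgs1*, *Sgs4* and *Sgs5* had ratios of 3.26, 5.13 and 5.55 there, against −0.25 to 0.27 on the other arrays, and the median absolute deviation of its ratios was 0.519, against 0.297 to 0.381.

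Insects make chitin at the apical membrane of epidermal, tracheal and some gut cells. Sugar phosphates are turned into UDP-N-acetylglucosamine, a chitin synthase in the membrane joins the sugars and extrudes the chain, and secreted proteins bind the chain or remove its acetyl groups. At each moult chitinases and hexosaminidases digest the old cuticle while a new one is laid down beneath it. In the gut, chitin of the peritrophic matrix surrounds the food, and chitinases are made there too. The Idgf proteins, the imaginal disc growth factors, have the fold of a chitinase but have lost its catalytic activity.

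In *poly* larvae, 5 of 14 genes for chitin deacetylases and obstructor proteins, which modify and bind chitin, were lower (35.7%, against 1.25% of all genes). A pair of neighbouring chitinases and *Idgf1* were higher. The deacetylases and obstructors hold every one of the 36 genes called lower, and they were joined with results of these arrays known. Of the 36 genes, 5 fell and 3 rose at an adjusted p under 0.05 from limma with Benjamini–Hochberg adjustment over all probes (n = 4 arrays). Those that fell were *obst-A*, *verm*, *Gasp*, *obst-B* and *Cda5*, with *verm* called on its main probe and not on its other. Those that rose were *Cht4*, *Cht9* and *Idgf1*. The shares of the 36 were 13.9% lower and 8.33% higher, and over all 11907 genes the shares were 1.25% lower and 1.42% higher. Counts of called genes in smaller groups below are to be read beside these shares of all genes. The other 28 did not pass. With centred arrays the counts were 6 lower and 2 higher, and over all genes 141 lower and 135 higher. With scaled arrays 4 of the 36 were lower and 2 higher. In that setting 134 of all genes were lower and 83 higher, against 149 lower and 169 higher as deposited. At an unadjusted p under 0.05, 14 of the 36 were lower (38.9%, against 8.92% of all genes) and 5 were higher (13.9%, against 8.10% of all genes). The ratios of 15 were below 0 on each of the 4 arrays (41.7%, against 12.3% of all genes), those of 5 were above 0 on each (13.9%, against 15.2%), and 16 changed sign between arrays. The median of the 36 ratios was −0.26, and that of all genes was 0.04. The genes were picked for their roles, with results of these arrays already known, and no test was made of the group as a whole. In RNA of whole larvae, fewer cells of a type and less RNA per cell cannot be told apart.

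**Figure D1:**
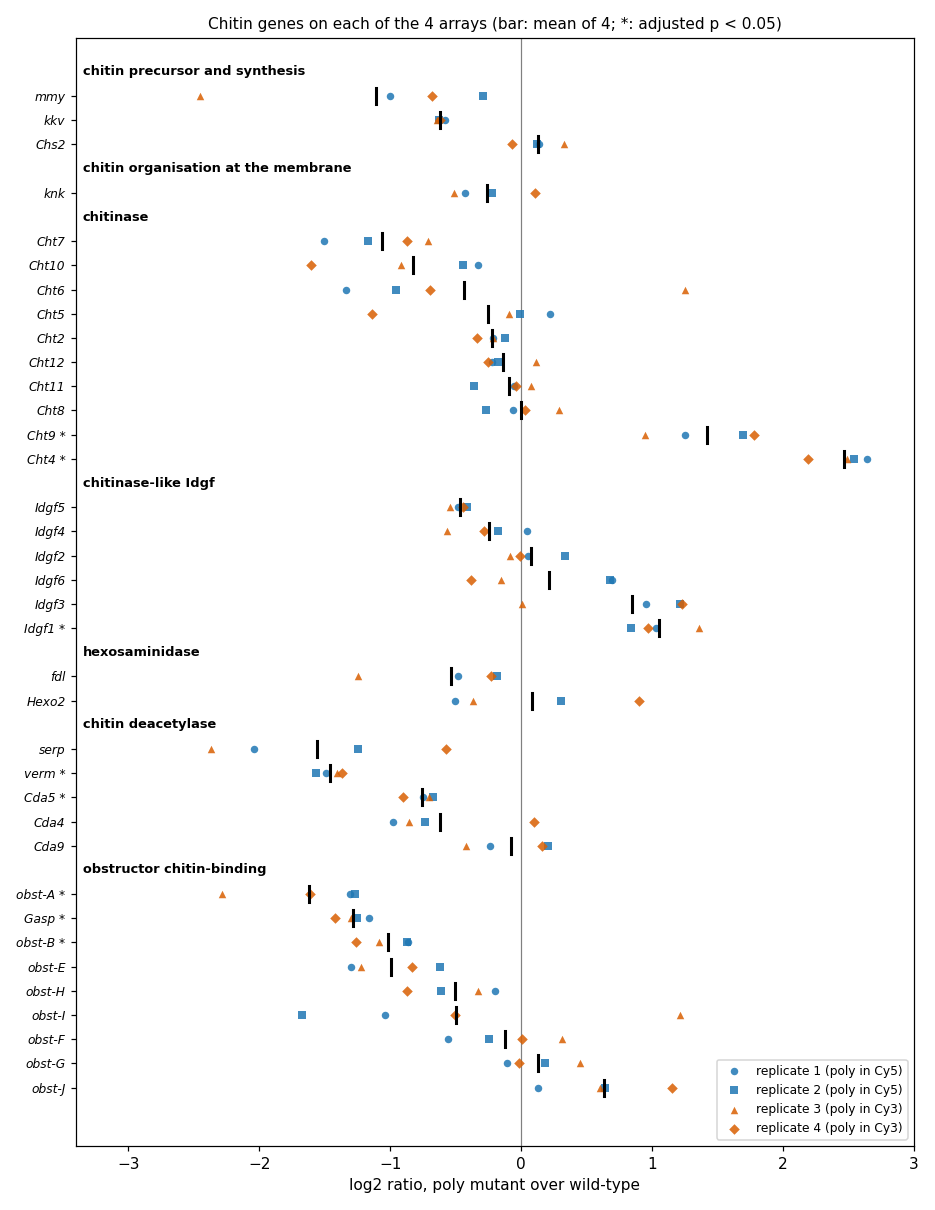
Log2 ratio of *poly* mutant over wild-type larvae (horizontal axis) for the 36 chitin genes with a probe, grouped by role, with 1 symbol per array (blue where *poly* carried Cy5, orange where it carried Cy3) and a black bar for the mean of 4. An asterisk marks the 8 genes with an adjusted p under 0.05. *Cht4*, *Cht9* and *Idgf1* lie to the right of 0 on each array. *verm* (its called probe), *Cda5*, *obst-A*, *Gasp* and *obst-B* lie to the left on each array.

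The enzymes that make chitin and its precursor were below 0 at most steps, and of the precursor genes 1 passed the test. The route starts with Gfat, which makes glucosamine-6-phosphate and is the step that sets the flow into the pathway. *Gfat1* fell, with ratios of −1.91, −1.34, −1.86 and −1.11 on replicates 1 to 4, averaging −1.56 ± 0.39 (SD, n = 4, adjusted p = 0.0297 from limma). Every array showed over 1 log2 unit less *Gfat1* RNA in *poly*, and the call was lost with a dye term (adjusted p = 0.0612) and with scaled arrays (adjusted p = 0.0572). *Gfat2*, the other gene for this enzyme, had ratios on both sides of 0 and a mean of 0.07 ± 0.33. *Gnpnat*, the acetyltransferase of the next step, had ratios of −0.90, −1.28, −2.23 and −1.97 and a mean of −1.59 ± 0.61 that did not pass (adjusted p = 0.0555). *nst*, the mutase that follows, had ratios between −1.10 and −0.31 and a mean of −0.62 ± 0.34 (adjusted p = 0.152). These precursor genes are not among the 36, and they come from a list of 7 genes of the hexosamine pathway, of which 6 had a probe, 1 fell and 0 rose. In the same list CG17065 had a mean of 0.20 ± 0.21, and *Nagk*, a kinase that salvages N-acetylglucosamine, had one of 0.40 ± 0.44.

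*mmy* encodes the pyrophosphorylase that makes UDP-N-acetylglucosamine, the sugar donor of the synthases. It had ratios of −1.001, −0.29, −2.46 and −0.68, all below 0 but unequal in size, and its mean of −1.11 ± 0.94 did not pass (adjusted p = 0.249). Without replicate 3, where it was lowest, the mean was −0.66 (adjusted p = 0.149). *kkv*, the chitin synthase of epidermis and tracheae, had the smallest spread of the 36 genes, with ratios of −0.58, −0.63, −0.64 and −0.62. Its mean was −0.62 ± 0.03 (95% interval −0.86 to −0.38 from the moderated error), 1.53-fold lower in *poly*, and it lay just beyond the threshold (adjusted p = 0.0505). It passed with probes averaged per gene and with array weights (adjusted p = 0.0497 and 0.0131) and in no other setting tried. *Chs2*, the chitin synthase of the gut, had ratios of 0.14, 0.12, 0.33 and −0.07, a mean of 0.13 ± 0.16 (95% interval −0.16 to 0.42). The difference between the synthases was not tested.

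**Figure D2:**
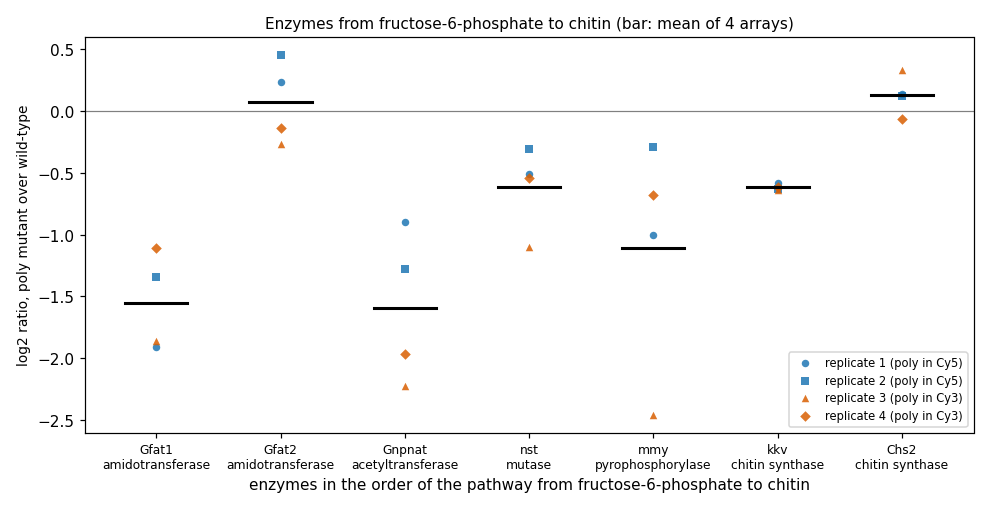
Log2 ratio of *poly* mutant over wild-type larvae (vertical axis) for the enzymes from fructose-6-phosphate to chitin, in the order of the pathway from left to right, with 1 symbol per array and a black bar for the mean of 4. *Gfat1*, *Gnpnat*, *nst*, *mmy* and *kkv* lie below 0 on each array, and *Gfat2* and *Chs2* lie on both sides of 0.

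Genes for proteins that work beside the synthase had means below 0 on their main probes, and none passed. *knk*, which shields newly made chitin and orders it at the membrane, had ratios of −0.43, −0.22, −0.51 and 0.11 and a mean of −0.26 ± 0.27 (adjusted p = 0.483). *reb* and *exp*, whose products are needed for *kkv* to deposit chitin in tracheae and epidermis, had means of −0.95 ± 0.38 (adjusted p = 0.074) and −0.56 ± 0.29 (adjusted p = 0.15). A second probe of *exp* had a mean of 0.11 ± 0.24, so the probes of *exp* do not agree. *ChLD3*, of the deacetylase family, had a mean of −0.25 ± 0.26. Of the 3 genes of that list, which are not among the 36, 0 were called by limma and 2 had an unadjusted p under 0.05.

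Chitin deacetylases, which remove acetyl groups from the polymer and change how it binds proteins, all had a mean below 0. Of 5 genes 2 fell, *verm* and *Cda5*, and 0 rose, and their median ratio was −0.76, with medians of −0.98, −0.73, −0.85 and −0.57 on replicates 1 to 4. *verm* is known with *serp* for limiting the length of tracheal tubes. Its ratios were −1.49, −1.57, −1.40 and −1.37, a mean of −1.46 ± 0.09 (SD, n = 4, adjusted p = 0.0115 from limma), 2.75-fold lower in *poly*. A second probe of *verm* gave −1.04, −0.87, 0.63 and 0.19, with both arrays that carried *poly* in Cy5 below 0 and both that carried it in Cy3 above. With the probes averaged the mean was −0.87 and the call was lost (adjusted p = 0.112). Which transcripts the probes detect is not known here.

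*serp* lies next to *verm* and encodes the other tracheal deacetylase. Its ratios were −2.04, −1.24, −2.37 and −0.57, all below 0, and its mean of −1.56 ± 0.81 lay close to that of *verm* with a wider spread, and did not pass (adjusted p = 0.0966). On the same array *serp* minus *verm* was −0.55, 0.32, −0.97 and 0.80, so neither was lower than the other throughout. *Cda5* had ratios of −0.75, −0.67, −0.70 and −0.90, a mean of −0.76 ± 0.10 (adjusted p = 0.0391), 1.69-fold lower in *poly*. Its call was lost with a dye term (adjusted p = 0.0639) and with scaled arrays (adjusted p = 0.0514). It was also lost with each replicate left out in turn (limma adjusted p from 0.0537 without replicate 3 up to 0.248). The means of *Cda5* lay between −0.79 and −0.71 in all settings. *Cda4* had ratios of −0.98, −0.73, −0.85 and 0.10 (mean −0.62 ± 0.49, adjusted p = 0.249), with replicate 4 apart from the rest. *Cda9* had ratios on both sides of 0 and a mean of −0.07 ± 0.31 (95% interval −0.46 to 0.32).

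The obstructor proteins carry chitin-binding domains of the peritrophin A type and are secreted into the cuticle and the tracheal lumen. Of 9 genes 3 fell, *obst-A*, *Gasp* and *obst-B*, 0 rose, and their median ratio was −0.50. Their medians on replicates 1 to 4 were −0.86, −0.62, −0.33 and −0.83. *obst-A*, which organises the chitin matrix of the larval cuticle together with *serp* and *knk*, had the lowest mean of the 36 genes. Its ratios were −1.31, −1.27, −2.28 and −1.61, a mean of −1.62 ± 0.47 (SD, n = 4, adjusted p = 0.0344 from limma), 3.07-fold lower in *poly*. *Gasp*, a protein of the tracheal chitin, had ratios of −1.16, −1.26, −1.30 and −1.42, a mean of −1.29 ± 0.11 (adjusted p = 0.016), 2.44-fold lower. *obst-B* had ratios of −0.86, −0.87, −1.08 and −1.26, a mean of −1.02 ± 0.19 (adjusted p = 0.0303), 2.03-fold lower. The calls of these 3 genes held with a dye term, with centred and scaled arrays, and without replicate 3. With replicate 1, 2 or 4 left out they were lost, as were the calls of all genes.

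*obst-E*, which gives the cuticle of the pupa its shape, was measured by a pair of probes that ran together. The ratios were −1.30, −0.62, −1.23 and −0.83 on one (mean −0.996 ± 0.32, adjusted p = 0.0518) and −1.36, −0.67, −1.25 and −0.58 on the other (mean −0.97 ± 0.40, adjusted p = 0.0762), all below 0 and neither past the threshold. The remaining obstructor genes are the less studied ones. *obst-H* had a mean of −0.50 ± 0.30 on one probe and of −0.35 ± 0.45 on the other. *obst-I* was below 0 on replicates 1, 2 and 4 (−1.04, −1.67 and −0.50) and at 1.22 on replicate 3, a mean of −0.50 ± 1.24, or −1.07 without that array. *obst-F* (−0.12 ± 0.37) and *obst-G* (0.13 ± 0.25) had ratios on both sides of 0. *obst-J* stood alone among the obstructors with ratios above 0 on each array, of 0.13, 0.64, 0.60 and 1.15 (mean 0.63 ± 0.42, adjusted p = 0.193).

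Chitinases did not share a direction. Of 10 genes 2 rose, *Cht4* and *Cht9*, and 0 fell, and 8 had a mean below 0, with a median of −0.18. *Cht4* had ratios of 2.64, 2.55, 2.49 and 2.19, a mean of 2.47 ± 0.20 (SD, n = 4, adjusted p = 0.00863 from limma), 5.53-fold higher in *poly*. Its mean was the 24th highest of all 11907 genes. *Cht9* had ratios of 1.25, 1.69, 0.95 and 1.78, a mean of 1.42 ± 0.39 (adjusted p = 0.0344), 2.67-fold higher. The call of *Cht9* was lost with a dye term (adjusted p = 0.0702), with centred arrays (adjusted p = 0.0504) and with scaled arrays (adjusted p = 0.0673). That of *Cht4* held in each of these.

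*Cht4* and *Cht9* lie next to each other on chromosome arm 2R, in a run of 4 chitinase genes in the order *Cht8*, *Cht12*, *Cht4*, *Cht9*. The other members of the run had ratios near 0. *Cht12* had ratios of −0.22, −0.18, 0.11 and −0.26 (mean −0.14 ± 0.17, 95% interval −0.43 to 0.16), and *Cht8* had ratios of −0.07, −0.27, 0.29 and 0.03 (mean 0.00 ± 0.23, 95% interval −0.34 to 0.33). On each array *Cht4* exceeded its neighbour *Cht12* by 2.38 to 2.87. Signal shared between the probes of these related genes was not tested. Some gut markers also rose, with 12.8% of those listed higher and 2.56% lower, against 1.42% and 1.25% of all genes. Of 39 genes of digestive proteases, lysozymes, maltases and amylases 5 rose, *Jon65Ai*, *Jon66Ci*, *Jon66Cii*, *iotaTry* and *Mal-A6*, and 1 fell, *Mal-A2*, with medians over the list of 0.40, 0.63, 0.28 and 0.95 on replicates 1 to 4. The proteases *Jon66Cii* and *Jon66Ci* averaged 2.56 ± 0.81 and 1.88 ± 0.35, and the maltases *Mal-A6* and *Mal-A2* averaged 2.37 ± 0.52 and −0.89 ± 0.14. Ratios give no level, so it cannot be said which markers were at 0 in either genotype. RNA of whole larvae does not show which genes of the run are made in the gut. The part of gut tissue in the ratios of these chitinases was not tested.

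Of the chitinases of the moult and of other tissues, none passed. *Cht7*, which is anchored at the membrane and serves in the larval cuticle, had ratios of −1.51, −1.17, −0.71 and −0.87, all below 0, a mean of −1.06 ± 0.35 (95% interval −1.49 to −0.64, adjusted p = 0.0518), 2.09-fold lower. It passed with centred arrays (adjusted p = 0.0456), with array weights (adjusted p = 0.00961) and without replicate 3 (adjusted p = 0.0469). *Cht10*, a long chitinase with several catalytic domains that digests old cuticle, had ratios of −0.33, −0.44, −0.92 and −1.61 (mean −0.82 ± 0.58, adjusted p = 0.193). Its ratios were lower on both arrays with *poly* in Cy3 than on both with *poly* in Cy5. *Cht5*, the chitinase of moulting fluid, had ratios of 0.22, −0.01, −0.10 and −1.14, near 0 on 3 arrays and lower on replicate 4 (mean −0.26 ± 0.61). *Cht6* was below 0 on replicates 1, 2 and 4 (−1.34, −0.95 and −0.70) and at 1.25 on replicate 3 (mean −0.43 ± 1.15, or −0.996 without that array, where the adjusted p was 0.066). *Cht2* had ratios between −0.34 and −0.13 (mean −0.22 ± 0.09, adjusted p = 0.385), and *Cht11* ratios between −0.36 and 0.08 (mean −0.09 ± 0.19).

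**Figure D3:**
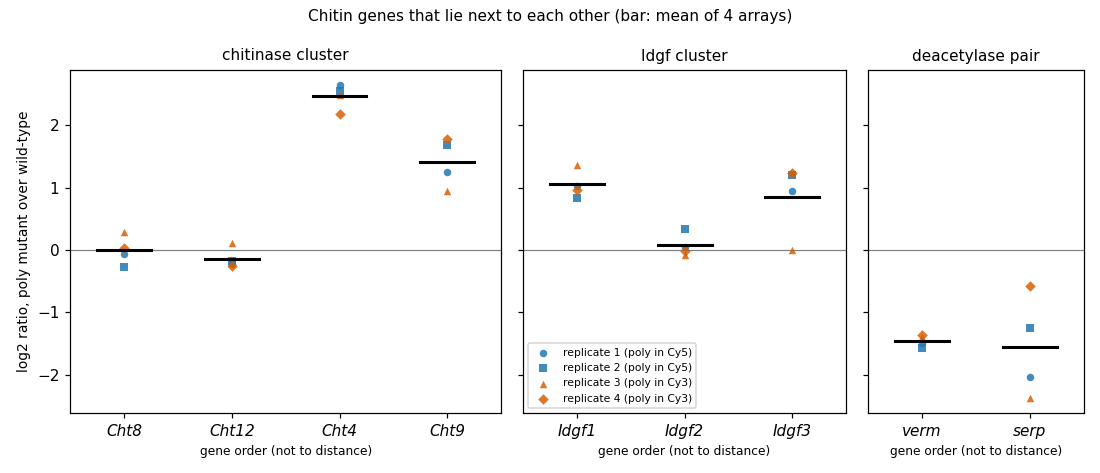
Log2 ratio of *poly* mutant over wild-type larvae (vertical axis) for chitin genes that lie next to each other, in gene order and not to distance, with 1 symbol per array and a black bar for the mean of 4. *Cht4* and *Cht9* lie above 0 and *Cht8* and *Cht12* near it, *Idgf1* lies above 0 on each array with *Idgf2* near it, and *verm* (its called probe) and *serp* lie below 0 on each array.

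The Idgf proteins are secreted by the fat body and by haemocytes and were named for their effect on imaginal disc cells in culture. Of 6 genes 1 rose, *Idgf1*, 0 fell and 5 did not pass, with a median ratio of 0.14. *Idgf1* had ratios of 1.03, 0.84, 1.36 and 0.97, a mean of 1.05 ± 0.22 (SD, n = 4, adjusted p = 0.0329 from limma), 2.07-fold higher in *poly*. Its call was lost with a dye term (adjusted p = 0.0571). *Idgf1*, *Idgf2* and *Idgf3* lie side by side on 2L. *Idgf2*, in the middle, had ratios of 0.06, 0.34, −0.08 and −0.01 (mean 0.08 ± 0.18, 95% interval −0.23 to 0.38), and *Idgf1* was above it on each array, by 0.50 to 1.45. *Idgf3* had ratios of 0.95, 1.21, 0.01 and 1.23 (mean 0.85 ± 0.58, adjusted p = 0.179). Replicate 3 alone was near 0, and without it *Idgf3* had a mean of 1.13 and passed (adjusted p = 0.03).

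The other Idgf genes lie elsewhere. *Idgf5* had close ratios of −0.48, −0.41, −0.54 and −0.44 (mean −0.47 ± 0.06, adjusted p = 0.0898), opposite in sign to *Idgf1*. *Idgf4* had a mean of −0.24 ± 0.25. *Idgf6* was at 0.70 and 0.68 on the arrays with *poly* in Cy5 and at −0.15 and −0.39 on those with *poly* in Cy3, so its sign followed the dye. Of 9 haemocyte markers 1 was called higher, the receptor gene *NimC1* at 1.498 ± 0.52, and 0 lower, and at an unadjusted p under 0.05 1 was higher and 2 were lower. Those 2 are the collagen genes *vkg*, at −1.22 ± 0.56, and *Col4a1*, at −1.06 ± 0.89. Of the 9 means 6 were below 0, with list medians of −0.61, 0.00, −0.21 and 0.03 on replicates 1 to 4. Of 4 fat body markers 0 were called by limma and 1 had an unadjusted p under 0.05, with list medians of −1.25, 0.79, 3.31 and 0.62. The part of these tissues in the ratios of the Idgf genes was not tested.

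Hexosaminidases finish the digestion of chitin to single sugars. *Hexo2*, one of them, had ratios of −0.51, 0.31, −0.36 and 0.90 (mean 0.08 ± 0.65). *fdl*, a hexosaminidase that trims N-glycans, had ratios of −0.48, −0.18, −1.24 and −0.23, all below 0 (mean −0.53 ± 0.49, adjusted p = 0.323). Neither passed.

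The arrays agreed closely for some genes and poorly for others. Over all probes the ratios of replicates 1 and 2 had a Pearson correlation of 0.62. Replicate 4 correlated at 0.38 with replicate 1 and at 0.44 with replicate 2. Correlations of replicate 3 were lower, at 0.21, −0.18 and 0.30 with replicates 1, 2 and 4. The median SD over the 36 genes was 0.303, against 0.301 over all genes, and single SDs ran between 0.03 for *kkv* and 1.24 for *obst-I*. SDs above 0.9 belonged to 3 genes, *mmy*, *Cht6* and *obst-I*, and in each of these replicate 3 was the array at the end of the range. Of the 8 called genes, 6 had an SD under 0.25. The means of the arrays with *poly* in Cy5 and of those with *poly* in Cy3 had opposite signs in 9 of the 36 genes and in 0 of the 8 called ones. The share over all genes was not counted. A call requires ratios that agree between arrays, so both counts over the called genes follow largely from the call. A further 3 of the 36 had an adjusted p between 0.05 and 0.06, *kkv*, *Cht7* and *obst-E*, as did 84 of all genes.

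**Figure D4:**
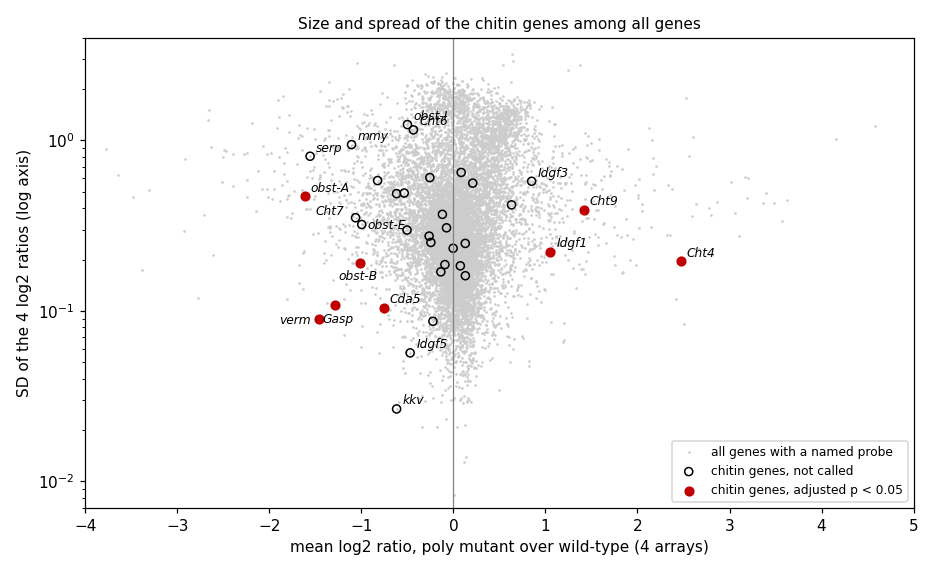
Mean log2 ratio of *poly* mutant over wild-type larvae on 4 arrays (horizontal axis) against the SD of the 4 ratios (vertical axis, logarithmic) for all 11907 genes in grey and the 36 chitin genes in black (not called) and red (adjusted p under 0.05). *kkv* has an SD of 0.03, *Cht6* and *obst-I* have SDs above 1, and *Cht4* is the farthest to the right of the chitin genes.

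The calls depended on which array was left out. With replicate 1, 2 or 4 left out, limma called 0 of the 36 genes and 0 of all genes, while 1529, 1478 and 1906 probes kept an unadjusted p under 0.05. Without replicate 3, the array with the glue genes, 9 of the 36 passed: *Cht4*, *Cht9*, *Idgf1*, *verm*, *Gasp*, *obst-A* and *obst-B* as before, with *Cht7* and *Idgf3* added and *Cda5* lost. Over all genes, 151 were lower and 216 higher without replicate 3. Array weights, which lean on replicates 1 and 2 and so on a single dye orientation, gave 14 of the 36. With these weights 639 of all genes were lower and 622 higher.

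Genes of neighbouring roles are set beside these. Of 22 mucins and peritrophins, which coat the gut and line other tubes, 2 rose and 0 fell, with a median of 0.11. Those 2 are 9.09% of the list, against 1.42% of all genes higher. *Muc11A* had ratios of 1.19, 1.17, 1.30 and 1.14 (mean 1.20 ± 0.07, adjusted p = 0.016) and *Peritrophin-15b*, a small chitin-binding protein, ratios of 0.93, 1.26, 0.72 and 0.84 (mean 0.94 ± 0.23, adjusted p = 0.0427). The call of *Peritrophin-15b* was lost with a dye term (adjusted p = 0.0601), with centred arrays (adjusted p = 0.0656) and with scaled arrays (adjusted p = 0.083). Of 8 zona pellucida domain and related proteins of the apical matrix with a probe, *qsm* fell, with a mean of −1.01 ± 0.11 (adjusted p = 0.0242), and the remaining 7 had an adjusted p above the threshold.

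Of the cuticle proteins that chitin is packed with, more fell than rose. Of 11 Lcp genes with a probe 6 fell, *Lcp65Aa*, *Lcp65Ac*, *Lcp65Ae*, *Lcp65Af*, *Lcp65Ag1* and *Lcp65Ag2*, and 0 rose, with array medians between −1.94 and −1.25. The 11 include the pseudogenes *Lcp1Psi* and *Lcp65APsi*, the only ones with a mean above 0 (0.16 ± 0.22 and 0.17 ± 0.09). Of 68 Cpr genes 8 fell, *Cpr47Eg*, *Cpr62Bc*, *Cpr65Av*, *Cpr67Fa1*, *Cpr67Fa2*, *Cpr78Ca*, *Cpr78Cc* and *Cpr100A*, and 0 rose, with array medians between −0.59 and 0.02. Called lower were 54.5% of the 11 Lcp and 11.8% of the 68 Cpr genes, against 1.25% of all genes. Signal shared between the probes of related genes, such as *Lcp65Ag1* and *Lcp65Ag2*, was not tested. Of 7 tanning genes *stw*, the laccase that hardens cuticle, fell, with a mean of −1.06 ± 0.24 (adjusted p = 0.0338), and of the others 0 passed. A second *stw* probe averaged −0.92 (adjusted p = 0.0781), and the call was lost with a dye term (adjusted p = 0.0533). Together the 14 deacetylases and obstructors had array medians between −0.92 and −0.70. No test of the difference between these groups was made. Of 12 genes of the ecdysone response, which times the moults, 0 were called by limma (3 lower and 1 higher at an unadjusted p under 0.05), with array medians between −0.35 and 0.09. Mutant larvae of this allele develop slowly, so larval age and genotype cannot be told apart.

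**Figure D5:**
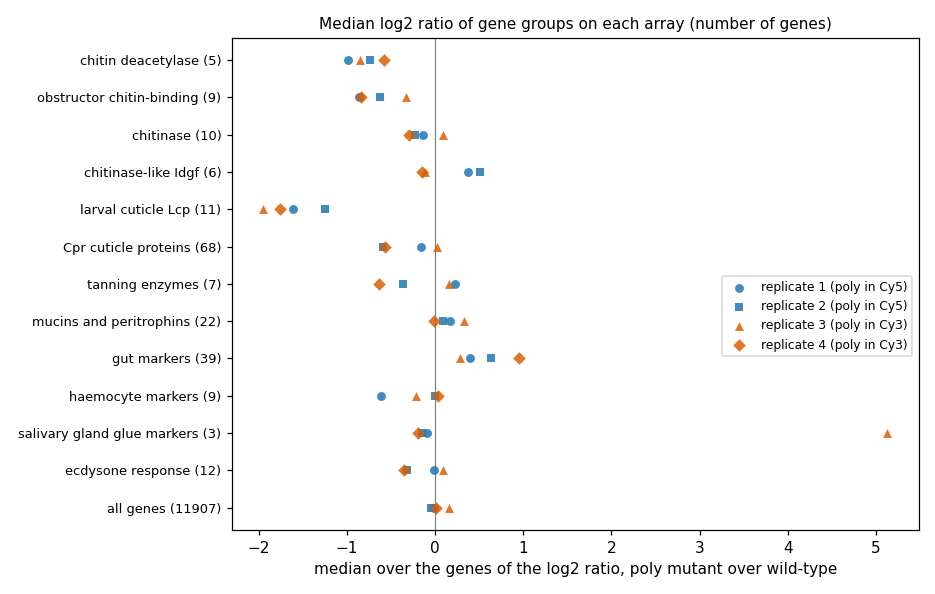
Median over the genes of a group of the log2 ratio of *poly* mutant over wild-type larvae (horizontal axis), with 1 symbol per array and the number of genes in parentheses. Chitin deacetylases, obstructors and Lcp genes lie left of 0 on each array, gut markers lie right of it, and the glue genes lie near 0 on 3 arrays and at 5.13 on replicate 3.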

How the data were processed

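Whole larvae of *poly* and wild-type were compared on 4 long-oligonucleotide arrays. The authors measured spots in Dapple and applied vsn, and deposited 1 log2 ratio per array for each of 14569 probes, with none missing. No source used here gives the background correction, spot filters or vsn settings. Without spot intensities, the number of arrays limits the precision. Ratios were read as *poly* over wild-type with no sign turned. This direction is likely rather than stated, and rests on the *poly* probe being below 0 on each array and on the signs the study prints for its genes.

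Probes were named through the platform annotation and updated by gene identifier or accession to RefSeq GCF_000001215.4, used for names and gene order only. Of the probes 12657 had 1 gene symbol, 96 several, 1 none, and 1815 are unnamed here.

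Each probe's ratios were tested against 0, two-sided, with limma 3.58.1 in R 4.3.3 (lmFit, eBayes, 4.97 degrees of freedom), adjusted by Benjamini–Hochberg across the 14569 probes and called at 0.05. A gene with several probes is given by the probe with the smallest p. The 95% intervals use the moderated error. The fit was tested on simulated data. Alternatives were a dye term, centred arrays, scaled arrays (centred, then given an equal median absolute deviation), the mean of a gene's probes, array weights, a robust prior, and each replicate left out. The named genes are the 36 and, of other lists, those that passed or otherwise the 2 with the smallest p. Members and lists were chosen with earlier results of these data known. Marker genes named beside a result, and the other genes given with values, were chosen after their values were seen.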

Additional observations from a re-analysis of the deposited data

Results flagged for a closer look

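None of the 36 chitin genes had an array far from the other 3 by Dixon's criterion, which compares the gap to the nearest array with the whole range and asks whether it is above the 95% critical value. Of the 65 genes examined this way 6 met it, and all of these but *Cpr65Av* are glue or fat body genes. Those markers had been selected in view of their ratios. The count of 6 therefore cannot be compared with the rate of about 1 in 20 that chance alone would single out. The glue genes *Sgs1*, *Sgs4* and *Sgs5* had log2 ratios of 3.26, 5.13 and 5.55 on replicate 3, far above the other arrays. *apolpp*, a fat body lipoprotein gene, was lowest on replicate 3, at −1.68, *Fbp2*, another fat body gene, was lowest on replicate 1, at −0.13, and *Cpr65Av*, a cuticle protein gene, was lowest on replicate 4, at −3.2.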

How the results depend on the processing

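The counts over the 36 chitin genes were 5 lower and 3 higher. They were 10 lower with array weights, 1 higher with a dye term, and between 0 and 5 lower and 0 and 4 higher with 1 replicate left out. Over all genes, 149 were lower and 169 higher. These were 65 and 96 with a dye term, 639 and 622 with array weights, 83 higher with scaled arrays, and between 0 and 151 lower and 0 and 216 higher with 1 replicate left out. In settings that keep all arrays, 7 calls of chitin genes were lost (*Cht9* in 3 settings, *Cda5* in 2, *Idgf1* and *verm* in 1 each), 8 were gained and 0 ratios changed sign. With 1 replicate left out, 25 calls were lost and 2 gained, and the ratio changed sign in 7 cases, all of uncalled genes. Their log2 ratios ran between −0.415 and 0.0396 for *Cht5*, −0.101 and 0.0861 for *Cht8*, −0.0120 and 0.128 for *Idgf2*, −0.188 and 0.281 for *Hexo2*, −0.169 and 0.0417 for *Cda9*, and −0.263 and 0.0253 for *obst-F*. The cause of these changes was not tested. Each array already pairs the genotypes, so testing its ratios against 0 uses that pairing. With 1 group of arrays no further pairing was made.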

Other observations

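The fat body genes beside the Idgf genes disagreed between arrays. *Lsp2*, a larval serum protein gene, had log2 ratios of −3.48, 1.53, 3.43 and 1.12 on replicates 1 to 4, and *Fbp1* had −2.34, −0.12, 5.22 and −0.18. Among the mucins, *Muc68E* had ratios of 1.38, 1.54, 1.14 and 0.64 and *Muc55B* ratios of 1.33, 1.66, 0.41 and 1.51, above 0 on each array, and neither passed (adjusted p = 0.0508 and 0.0798 from limma). *Peritrophin-A*, a relative of the obstructors, had ratios of −0.75, −0.25, −1.49 and −0.94 (adjusted p = 0.146).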
